A study of Homo sapiens with 15 samples.

Results

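Activation guides against the long non-coding RNA TrEx4039 were compared with non-targeting guides in HEK293FT cells, a fast-growing human embryonic kidney line. The comparison covers every row of the authors' deposited expression table, and its account below rests on the 9795 of 11230 rows whose mean normalised count over the 15 libraries of the series was at least 50. A row is a gene or an assembled locus, and 6972 of the 9795 are annotated as protein-coding. For each row the change is log2((trex4039 mean + 1)/(control mean + 1)), called the log2 ratio here. A row is said to have risen or fallen where the authors' deposited table gives an adjusted p below 0.05.

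The group trex4039 and the control group scramxxx held 3 libraries each, described as biological triplicates. Both groups carried the same activators, dCas9-VP64 together with MS2-p65-HSF1, and a mix of 5 guides. Guides of the trex4039 group lay 50 to 450 bp upstream of the start of the targeted RNA, and those of the control were non-targeting. Puromycin at 2 ug/mL was added from 24 h, and polyA RNA was taken at 48 h. The other groups, named here by the titles trex5008, trex8168 and trex0108 (title and target label disagree for trex5008 and trex8168), share the same control, so their values are set beside those of trex4039 below without any measure of agreement. Only group means were used here, so no value below carries an SD and the depth of the libraries is unknown. The authors' adjusted p depends on replicate spread, but also on the size of the change and the count. The spread itself is not shown.

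In CRISPR activation a Cas9 that cannot cut DNA carries activation domains to a promoter. VP64, the p65 part of NF-kB and the heat-shock factor HSF1 recruit the transcription machinery there. TrEx RNAs are long non-coding RNAs expressed transiently while stem cells become cortical neurons, and HEK293FT cells are used as a host in which such an RNA can be switched on.

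Changes were many and small. Of the 9795 rows, 4022 (41.1%) rose and 3148 (32.1%) fell. Only 11 rows (0.112%) rose by a log2 ratio of at least 1 and 86 (0.878%) fell by as much. The median log2 ratio was 0.31 among rises and -0.36 among falls, and 87.5% of all 9795 rows lay within 0.5 of 0. A row is listed only where at least 1 of the 4 comparisons with control gave an adjusted p below 0.1, so these shares describe the list and not all expressed genes. Among protein-coding rows 44% rose and 30.2% fell, and these shares are the background for each gene group below. They include rows that the groups leave out and that fell more often. These are rows without a gene name, second rows of a gene and rows covering under 0.5 of it. In rows that span the annotated gene, 47% rose and 27.4% fell. In RNA from whole cultures, fewer cells of a type and less RNA per cell cannot be told apart.

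**Figure D1:**
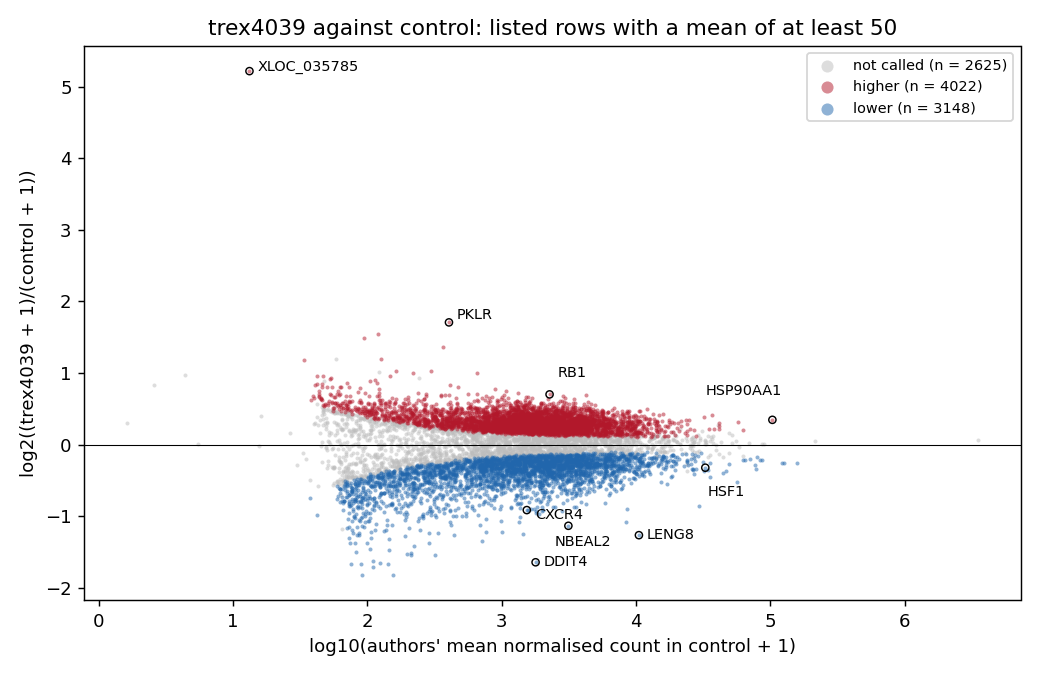
Log2 ratio of trex4039 over control (vertical axis) against the log10 of the authors' mean normalised count in control plus 1 (horizontal axis) for the 9795 rows with a mean of at least 50. Red points rose (4022), blue points fell (3148) and grey points were not called (2625); XLOC_035785 stands alone at 5.22, and most other rows lie in a narrow band around 0.

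The largest rise was that of XLOC_035785, a 96 kb locus on chromosome 2 (56180865 to 56276825, hg19) to which the table gives no gene name and no type. Its mean normalised count was 12.2 in the control and 492 with trex4039, a log2 ratio of 5.22, and the authors' deposited table gives it an adjusted p of 1.6e-169. It was 11.3 in the group titled trex5008, 11.2 in trex8168 and 14.4 in trex0108, all close to the control. The row is listed through the trex4039 comparison only. The sources used here do not pair TrEx numbers with loci, so whether this row is the targeted RNA is not stated. No other listed row lay within 100 kb of it. Within 500 kb, PNPT1, a mitochondrial RNA-processing exonuclease, rose by 0.28, CCDC104 by 0.34 and the locus XLOC_035780 by 0.31, while RP11-554J4.1 fell by 0.46 on the log2 scale. For comparison, the median log2 ratio was 0.31 among the 4022 rows that rose and 0.09 over all 9795 rows.

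A sequence property ran through the rest of the comparison and is shown first because it touches every gene group. Rows that rose came mainly from transcripts rich in A and U, and rows that fell from transcripts rich in G and C. The first 150 coding bases of LENG8, NBEAL2 and PPP3R1, which are among the falls and rises with the lowest adjusted p in rows that span the annotated gene, show the contrast by eye, with every G and C in capitals. They are taken, 5′ to 3′, from the GENCODE 29 transcript with the longest coding sequence.
LENG8, lower, chromosome 19: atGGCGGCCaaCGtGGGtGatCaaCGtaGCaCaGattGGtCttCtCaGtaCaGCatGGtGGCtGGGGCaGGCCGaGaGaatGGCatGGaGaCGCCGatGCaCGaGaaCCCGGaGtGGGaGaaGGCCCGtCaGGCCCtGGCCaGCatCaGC
NBEAL2, lower, chromosome 3: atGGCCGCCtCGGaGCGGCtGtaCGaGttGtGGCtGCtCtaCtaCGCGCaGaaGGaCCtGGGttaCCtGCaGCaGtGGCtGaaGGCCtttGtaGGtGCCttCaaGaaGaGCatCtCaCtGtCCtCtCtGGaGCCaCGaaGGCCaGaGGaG
PPP3R1, higher, chromosome 2: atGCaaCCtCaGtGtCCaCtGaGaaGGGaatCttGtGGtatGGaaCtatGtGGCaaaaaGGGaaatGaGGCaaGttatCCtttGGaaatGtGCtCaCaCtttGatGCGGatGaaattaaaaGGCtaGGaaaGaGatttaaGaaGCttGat
Of the 150 bases, 93 are G or C in LENG8, 89 in NBEAL2 and 61 in PPP3R1. Over the whole transcript the GC content is 61.6%, 62.4% and 41.7% in the same order, and 39.8% in USP33, the other rise of this kind.

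LENG8, a PCI-domain protein related to the SAC3 family of mRNA export factors, had a mean of 10499.9 in the control and 4363 with trex4039. Its log2 ratio was -1.27, and the authors' deposited table gives it an adjusted p of 7.64e-66. NBEAL2, a BEACH-domain protein needed for platelet granules, went from 3133 to 1425 (-1.14 on the log2 scale). USP33, a deubiquitinase, went from 2999.7 to 4504 (0.59), and PPP3R1, the regulatory B subunit of calcineurin, from 3425 to 5321 (0.64). In all 4 genes the trex5008 and trex8168 means lay between those of control and trex4039. LENG8 was 5765 and 6913 in those groups, and USP33 4081 and 3559.

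Gene sequence features were matched by symbol for rows whose span in the table is 0.5 to 2 times that of the annotated gene, which left 4792 protein-coding rows, here called gene-length rows. Of these, 47% rose and 27.4% fell. The median GC content was 41.6% in rises, 60.0% in falls and 51.6% in rows not called. With at most 38% GC, 389 of 427 rows rose and 2 fell, whereas with over 62% GC, 2 of 568 rose and 457 fell. Across the 4792 rows the log2 ratio and GC content had a Pearson r of -0.82 and a Spearman rho of -0.81, a description over genes that share the same libraries. The rises also came from longer genes (median 58110 bp against 24820 bp in falls) with longer 3′ UTRs (1640 against 697 bases) and more ATTTA pentamers on the sense strand (1.96 against 0.29 per kb of transcript). Coding length differed less, at 1506 bases in rises and 1828 in falls. The promoters of the rises held less GC than those of the falls, 64.3% against 69.7%.

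The other target groups showed parts of the same gradient in the same bins. From the lowest to the highest GC bin the median log2 ratio went from 0.38 to -0.37 with trex4039, and from 0.24 to -0.30 in the group titled trex5008. It went from 0.08 to -0.06 in trex0108 and from 0.07 to -0.02 in trex8168. No measure of single libraries was used here, and whether any technical property of them moves with the gradient was not tested. Groups below are therefore given with the median GC content of their members and with their median after a smooth GC trend over the 4792 rows was subtracted, called the GC-removed value.

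**Figure D2:**
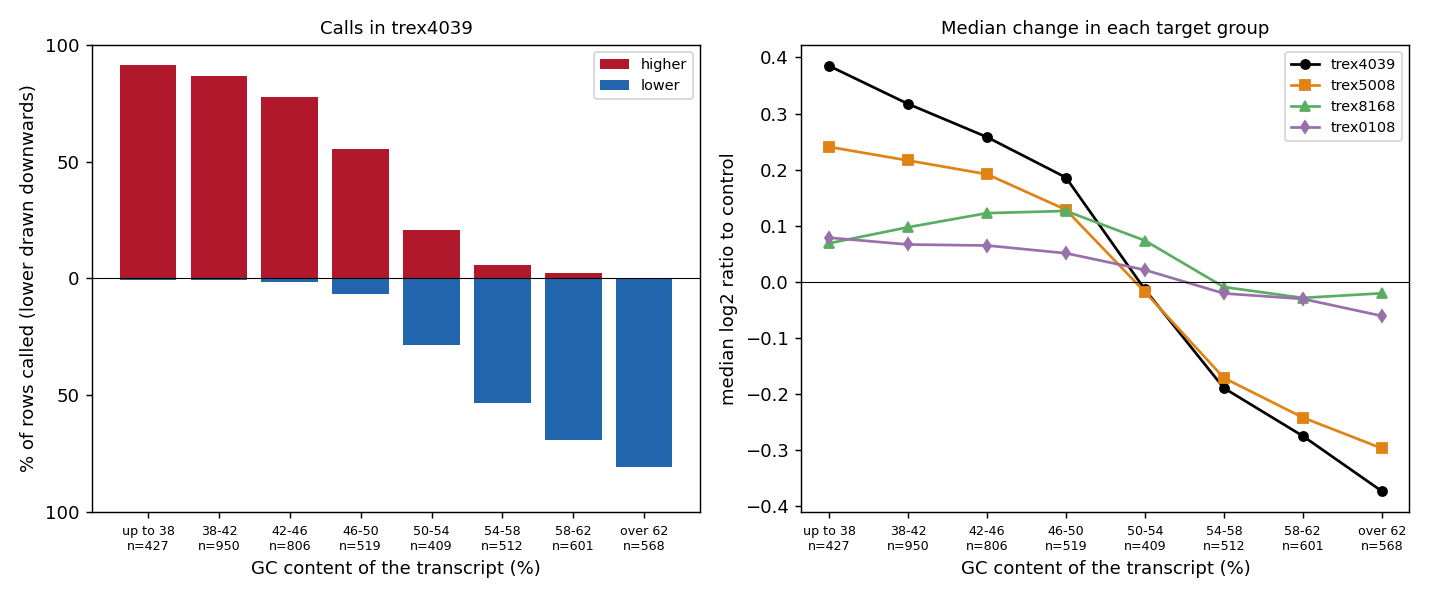
Left, the percentage of gene-length protein-coding rows that rose (red, upwards) or fell (blue, downwards) with trex4039 in 8 bins of transcript GC content, with the number of rows under each bin. Right, the median log2 ratio to control in the same bins for each of the 4 target groups; trex4039 and trex5008 slope most and trex0108 and trex8168 least.

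The 15 largest rises among named protein-coding rows were led by PKLR, the pyruvate kinase of liver and red cells. PKLR had a mean of 404 in the control and 1320.1 with trex4039, a log2 ratio of 1.71 (adjusted p 7.49e-09 per the authors' deposited table). Its row spans over 2 times the annotated gene, and it was also high in the group titled trex5008 (1255) but not in trex8168 (458). PLEK, a protein kinase C substrate of platelets and leukocytes, rose from 52.4 to 101 (0.93). TGFA, a ligand of the EGF receptor, rose from 69.4 to 126 (0.85). Both are transcripts on which the GC-removed value stayed large, 0.73 for PLEK and 1.15 for TGFA.

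Other rises of this set fall under several roles. GULP1, an adaptor for engulfment of dying cells, rose by 0.81, and CAP2, a cyclase-associated protein that turns over actin, by 0.75. NXT2, a cofactor of mRNA export, rose by 0.78. Among enzymes, DECR1, which acts in mitochondrial oxidation of unsaturated fatty acids, rose by 0.72 and the epidermal lipoxygenase ALOXE3 by 0.71. TLR3, a sensor of double-stranded RNA, rose by 0.71 from 272 to 446, and SAMD9, an interferon-regulated antiviral protein, by 0.71 from 652 to 1068. NOSTRIN, which binds nitric oxide synthase, rose by 0.71, the zinc finger gene ZNF141 by 0.71 and the synaptic vesicle glycoprotein SV2C by 0.71. CCDC178 (0.85) and IFLTD1 (0.81) complete the set. ZNF141 had a mean of 61.9 in control, 102 with trex4039, and 58.2, 56 and 57.1 in the groups titled trex5008, trex8168 and trex0108. ZNF141 was picked for its rise with trex4039 and is listed through that comparison only, so lower means elsewhere follow in part from the choice. The difference between targets was not tested.

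The 15 largest falls were a mixed set, because only 5 of them are gene-length rows. LENG8 and NBEAL2 are 2 of the 5. HES5, a repressor induced by NOTCH, fell from 246 to 107 (-1.19). CPNE7, a calcium-dependent phospholipid-binding copine, fell from 286 to 121 (-1.23), and the glycosyltransferase B4GALNT4 from 683 to 312 (-1.13). Another 3 are rows longer than 2 times the gene: DDIT4, a stress-induced inhibitor of mTORC1, fell from 1786 to 570.0 (-1.65), LCN12 by 1.38 and SYTL1 by 1.16 on the log2 scale. A further 5 rows cover less than 0.5 of the gene they are named for, TPPP (-1.46), PCGF3 (-1.37), HIC2 (-1.26), REV1 (-1.20) and MARK4 (-1.16), and 2 are second rows, with lower counts, of MPG (-1.65) and TAF11 (-1.23). The 5 short rows do not give the level of the whole gene. Which transcripts the 2 second rows hold is not stated.

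Second rows often differed from the main row of their gene. The main row of TAF11, a subunit of the general factor TFIID, rose by 0.22 from 2151 to 2504, while its second row fell from 105 to 44.4. The main row of MPG, a DNA glycosylase, fell by 0.26 on the log2 scale, and its second row fell by 1.65. Both main rows, of 23.3 kb for TAF11 and 57.6 kb for MPG, are over 2 times the length of the gene and can include reads of a neighbour. The second rows span 4.65 times the gene for TAF11 and 1.05 times for MPG, so they are not short parts of it. Of 30 such second rows with a mean of at least 50, 20 fell and 2 rose, and 24 lay below the main row of the same gene. Their median log2 ratio was -0.56 against -0.02 for the main rows. Their median span was 7.94 kb against 55.3 kb. Second rows and rows under 0.5 of the gene are left out of the group counts below.

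Restricting to gene-length rows gives a further set of falls. HSPG2, the basement membrane proteoglycan perlecan, fell from 1339 to 633 (-1.08), and TEF, a clock-controlled transcription factor, from 238 to 113 (-1.07). P2RX2, an ATP-gated ion channel, fell from 86.4 to 40.5 (-1.07). RB1, the retinoblastoma protein that restrains entry into S phase, stands among the rises by the same restriction, from 2269 to 3689 (0.70). Over these sets of 15, the gene-length falls ran from -1.27 (LENG8) to -0.97 (EFEMP2) and the rises from 0.93 (PLEK) to 0.70 (SLC16A4).

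**Figure D3:**
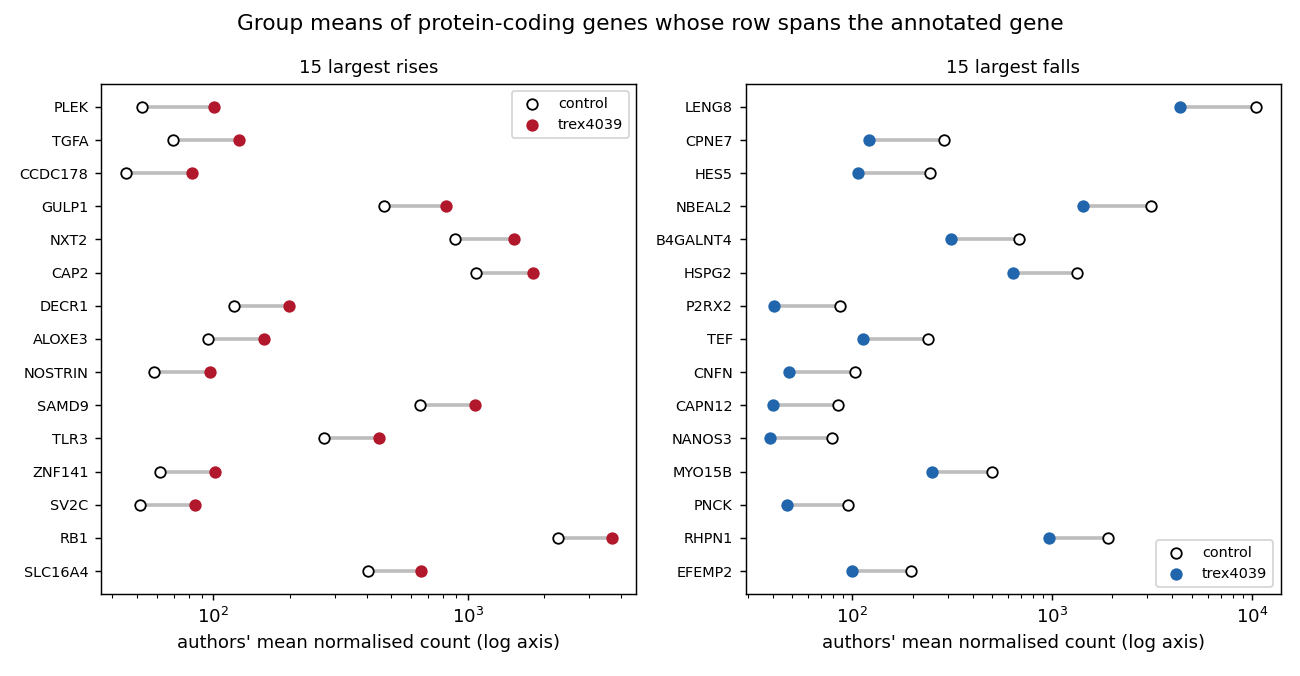
The authors' mean normalised counts in control (open circles) and trex4039 (filled circles) on a log axis for the 15 largest rises (left) and 15 largest falls (right) among gene-length protein-coding rows. PLEK goes from 52.4 to 101 at the top left and LENG8 from 10499.9 to 4363 at the top right.

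Gene lists were matched by gene symbol, so rows named only by a locus identifier enter none of them. Of the 6972 protein-coding rows, 993 are of this kind. Of 77 gene lists with at least 3 members, 52 had more members higher and 23 more members lower. Rows over 2 times the length of the gene stay in these counts and can include reads of a neighbour; besides those already marked they are, among the genes named below, CCND1, CFL2, CYR61, DNAJA1, HES1, JUN, LFNG, NRARP, PFN1, RELA, RFNG, RPS28, SALL1 and SQLE. The medians of the lists ran with the GC content of the members. After the GC trend was removed, the median of 66 lists lay within 0.1 of 0.

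Genes of membrane traffic were mostly higher. Of 27 RAB GTPases, which mark vesicles and organelles, 18 rose and 3 fell, with a median log2 ratio of 0.31. RAB18, found on lipid droplets and the endoplasmic reticulum, rose from 2620.5 to 3906 (0.58), whereas RAB3A, the RAB of synaptic vesicles, fell from 239 to 168 (-0.50). Of 12 ARF and ARL GTPases, 8 rose and 0 fell. Of 14 COPI and COPII coat and cargo genes, 12 rose and 1, the COPII scaffold SEC16A (-0.39), fell. TMED5, a cargo receptor, rose by 0.44. Of 25 SNAREs and exocyst genes, 17 rose and 3 fell; EXOC5, an exocyst subunit, rose by 0.53 and the vesicle SNARE VAMP7 by 0.49. The endosome and lysosome sorting list had 23 of 37 higher and 6 lower. These lists had median GC contents of 40.7% to 44.4%, and their GC-removed medians were 0.07 for RAB genes, 0.04 for ARF and ARL genes, 0.00 for coats, 0.04 for SNAREs and 0.05 for sorting genes.

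Chaperones and ubiquitin system genes were also mostly higher. Of 36 heat shock proteins and DNAJ chaperones, 28 rose and 1 fell, at a median of 0.25. HSP90AA1, the inducible cytosolic HSP90 and the rise with the highest mean count, had a mean of 103491 in the control and 131457 with trex4039 (0.35). DNAJA1, a cytosolic HSP40, rose from 11417 to 15031, and HSPA13, a microsomal HSP70 relative, from 2032 to 3037. The only fall in the list was DNAJB2 (-0.23), a neuronal DNAJ, which has the GC-richest transcript of the 4 (61.6%). Chaperone genes in rows without a gene name are not counted here. Deubiquitinases (21 of 31 higher, 5 lower), ubiquitin-conjugating enzymes (9 of 14, 1 lower) and cullin, F-box and BTB parts of ubiquitin ligases (31 of 50, 11 lower) had medians of 0.24, 0.28 and 0.23. The median GC content was 43.9% for chaperones, 40.9% for deubiquitinases, 43.3% for conjugating enzymes and 43.9% for ligase parts, and the GC-removed medians were 0.02, -0.02, 0.01 and 0.03. Other lists of folding and turnover were not mostly higher. Of 20 proteasome genes 7 rose, 3 fell and 10 were not called (median 0.05, GC content 51.1%, GC-removed 0.03). Of 12 genes of the unfolded protein response 6 rose and 2 fell (median 0.14, GC content 47.7%, GC-removed -0.0053), and of 16 autophagy genes 7 rose and 6 fell (median 0.15, GC content 48.6%, GC-removed -0.01). HSF1, whose product drives heat shock genes, was itself at 32768 in the control and 26179 with trex4039 and fell (-0.32, adjusted p 0.0356 per the authors' deposited table). Part of HSF1 is encoded by the activator plasmid, so reads of the cell's own gene and of the plasmid cannot be told apart; RELA, which encodes p65, fell by 0.23 on the log2 scale.

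RNA processing genes also leaned upwards. In the list of mRNA export factors and nucleoporins 21 of 31 rose and 3 fell, and LENG8 is one of the falls. Of 24 SR proteins and hnRNPs 14 rose and 3 fell, of 29 core spliceosome proteins 16 rose and 5 fell, and of 20 RNA decay genes 12 rose and 2 fell. Their median GC contents were 41.8% in each of the first 3 lists and 43.4% in the last, with GC-removed medians of -0.04, -0.07, -0.01 and -0.01. Of 147 zinc finger genes, many of which encode KRAB-domain repressors, 82 rose and 30 fell, with a median of 0.23, a median GC content of 43.4% and a GC-removed median of 0.01. Among cell cycle genes, DNA replication factors had 12 of 23 higher and 3 lower, and mitosis regulators 13 of 26 higher and 5 lower, at median GC contents of 46.1% and 44.2% and with GC-removed medians of -0.04 in both. CCNE2, a cyclin that drives S phase, rose from 916 to 1384 (0.59) while CCND1, the cyclin of G1, fell from 2109 to 1620.4 (-0.38).

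Ribosomal protein genes were mostly not called. Of 26 cytosolic ribosomal proteins listed, 2 rose, 6 fell and 18 were not called. RPL13 fell from 31985 to 24726 (-0.37) and RPS28 from 7079 to 4534 (-0.64). The list's median was 0.04 in trex4039, 0.21 in the group titled trex5008, 0.22 in trex8168 and 0.09 in trex0108. At a median GC content of 48.6% its GC-removed median was -0.09, with 19 of 26 members below the GC trend. Ribosomal protein genes have many processed pseudogenes, so counts of near-identical copies are uncertain.

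Collagen genes were mostly lower. Of 17 collagens 13 fell and 1 rose, at a median of -0.37 and a median GC content of 61.3%. COL4A2, a chain of the basement membrane collagen, fell from 4851 to 3097 (-0.65) and COL18A1, the source of endostatin, from 2042 to 1385 (-0.56). COL12A1, which coats collagen fibrils, rose from 219 to 291 (0.41) and has a GC content of 46.3%. The collagen median came to -0.05 with the GC trend removed, with 14 of 17 members below the trend.

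Basement membrane glycoproteins and perlecan were lower at a GC content near the middle of the range. Of 6 members 5 fell and 0 rose. After HSPG2, the falls were LAMC3 (546 to 357), NID1 (5742 to 4687), LAMA1 (1312 to 1105) and LAMB1 (3757 to 3374), which are laminin chains and the linker nidogen. NID2, at 1504 and 1361, was not called. The median GC content was 51.9%, the median log2 ratio -0.27 and the GC-removed median -0.28, and 6 of 6 members lay below the GC trend. In the group titled trex5008 the list had a median of -0.36, in trex8168 -0.12 and in trex0108 -0.09.

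NOTCH signalling passes a signal between neighbouring cells: ligands bind receptors, whose cleaved ends switch on HES genes. Of 14 members 8 fell and 2 rose, with a median of -0.29, a median GC content of 62.8% and a GC-removed median of -0.21. At an adjusted p under 0.01, 5 fell and 2 rose. Against the GC trend, 9 members lay below and 5 above. The ligand DLL4 rose from 169 to 236 (0.48). The receptors NOTCH1 and NOTCH3 fell, from 1399 to 941 and from 3885 to 2517. The fringe enzymes, which put sugars on the receptors, fell as well, RFNG by 0.56, LFNG by 0.54 and MFNG by 0.50 on the log2 scale. Of the targets, HES5 and HES1 fell (-1.19 and -0.29) and NRARP, a feedback inhibitor, fell by 0.30 on the log2 scale (GC-removed value 0.11). HES7, a segmentation clock repressor, rose from 158 to 240.4 (0.60), in a row over 2 times the length of the gene. HES7 and DLL4 were at 303 and 237 in trex8168, and at 151 and 165 in the group titled trex5008.

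Sterol and sugar metabolism leaned down at moderate GC content. Of 11 cholesterol synthesis genes 5 fell, or 3 at an adjusted p under 0.01, and 1 rose. The median was -0.16 at a median GC content of 46.9%, and 10 of 11 lay below the GC trend (GC-removed median -0.22). The largest falls were in regulators. SREBF1, the SREBP1 transcription factor, fell from 1565 to 831 (-0.91). INSIG1, which retains SREBP in the endoplasmic reticulum, fell from 3708 to 2456 (-0.59), in a row much longer than the gene. By the authors' deposited fold change INSIG1 was at -0.39. The enzymes DHCR7 and SQLE fell by 0.51 and 0.16 on the log2 scale, and SC5D rose by 0.22. In the other target groups the list's median was -0.03 (titled trex5008), 0.06 (trex8168) and 0.02 (trex0108).

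Of 7 listed glycolysis genes 5 fell, or 3 at an adjusted p under 0.01. PFKL, PFKP and PFKM, the 3 phosphofructokinase subunits that set the pace of glycolysis, went from 4256 to 2640.2, from 6369 to 4554 and from 3576 to 3218. The glucose transporter SLC2A1 fell by 0.34 and hexokinase HK2 by 0.20 on the log2 scale. PKLR was the only rise. The median of the 7 was -0.20 and the GC-removed median -0.21, at a median GC content of 54.8%.

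Immediate early factors, the first genes transcribed after a growth signal, were mixed. MYC, a growth-promoting transcription factor, fell from 5835 to 3323 (-0.81, adjusted p 4.75e-33 per the authors' deposited table). JUN fell from 4332 to 2766, NR4A1 from 1538 to 1085 and ZFP36, an mRNA decay factor, from 349 to 267. MAFF and NR4A3 rose by 0.34 and 0.30, and 8 of the 14 members were not called. MYC was at 4209 in the group titled trex5008, 5805 in trex8168 and 5376 in trex0108. Its GC-removed value was -0.72, and the median of the list was -0.08 at a median GC content of 52.9%, or -0.16 with the GC trend removed.

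Of 7 YAP and TEAD genes, read-outs of cell spreading and tension, 5 rose. The secreted matricellular proteins CYR61 and CTGF rose from 1023 to 1444 (0.50) and from 729.6 to 1021 (0.48). ANKRD1 rose by 0.44, the ectonucleotidase NT5E by 0.45 and the DNA-binding factor TEAD1 by 0.30, while ARHGEF17 fell by 0.34 on the log2 scale. The median was 0.44 at a GC content of 50.3%, and 6 of 7 members lay above the GC trend (GC-removed median 0.17). In the other groups the median was 0.05 (titled trex5008), -0.01 (trex8168) and 0.04 (trex0108).

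Of 22 actin regulators 15 rose and 4 fell, at a median of 0.26 and a median GC content of 45.2%. After CAP2, the rises included GMFB, which debranches actin (4259 to 6884), the capping subunit CAPZA2 (2223 to 3455), the monomer-binding TWF1 (0.59) and the severing factor CFL2 (0.54). The falls included the cross-linkers FLNA (-0.39) and ACTN4 (-0.30) and the monomer-binding PFN1 (-0.20), with GC contents of 62.2%, 58.6% and 58.5%. With the GC trend removed the median was 0.10, with 16 of 22 members above the trend.

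**Figure D4:**
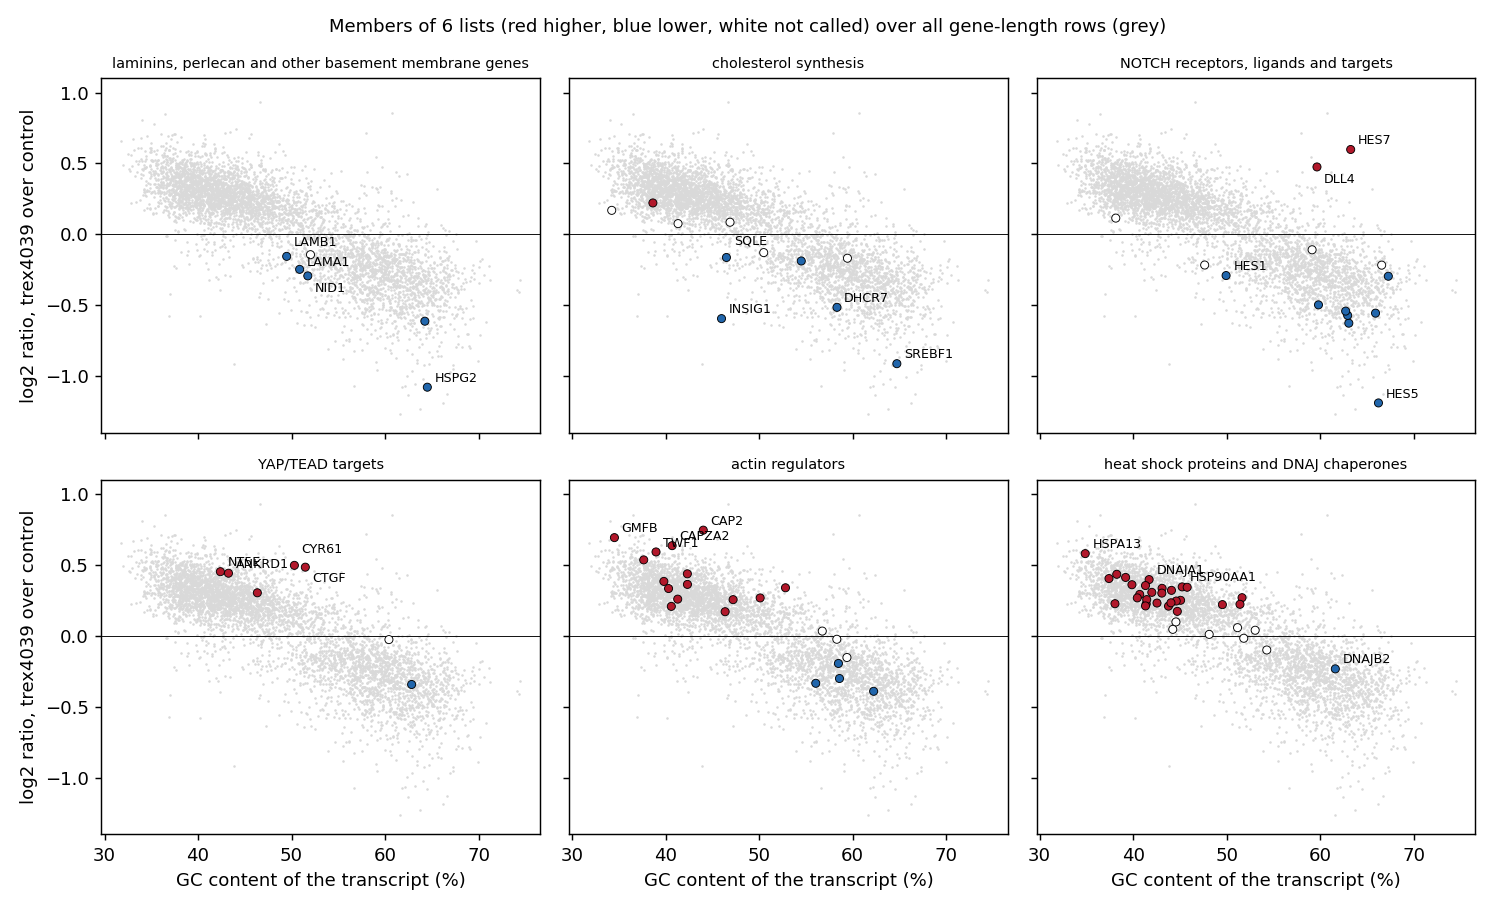
Log2 ratio of trex4039 over control against transcript GC content for the members of 6 lists (red rose, blue fell, white not called) over all 4792 gene-length rows in grey. Against the GC trend, 6 of 6 basement membrane genes and 10 of 11 cholesterol genes lie below and 6 of 7 YAP and TEAD genes above; of the 36 chaperones 21 lie above and 15 below.

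Lists of axon guidance genes, patterning factors and ion channels held GC-rich genes. Of 31 axon guidance genes 16 fell and 6 rose; PLXNA3, a semaphorin receptor, fell from 2203 to 1321 (-0.74), and SEMA3D and SEMA5B, both semaphorins, rose by 0.52 and 0.44. Of 18 SOX and forkhead factors 11 fell and 4 rose, of 16 potassium channels 7 fell and 4 rose, and of 21 sodium and calcium channels 5 fell and 5 rose. These lists had median GC contents of 60.5%, 57%, 61.4% and 57.5% and GC-removed medians of 0.01, -0.02, 0.07 and 0.03. The 5 listed HOX genes were not called.

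Marker genes were checked against the label of the cells. Kidney markers had 5 listed members, of which PAX2 (369 to 300.3), SALL1 (1882 to 1564) and LHX1 (449.9 to 386) fell and none rose. Of 6 neuronal and progenitor markers 4 fell and 1 rose, and of 3 fibroblast and endothelial markers 2 fell and 1 rose. A single blood marker was listed and not called. Of 2 listed markers of pluripotent cells, LIN28B rose from 5176 to 6388 and SALL4, at 441 and 374, was not called. Median GC contents were 53.6% for kidney, 55.9% for neuronal and 50.2% for fibroblast and endothelial markers. Their median log2 ratios were -0.22, -0.24 and -0.37, and their GC-removed medians -0.0042, 0.02 and -0.38. Markers that no comparison called are not in the list, so absence of a cell type was not tested.

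**Figure D5:**
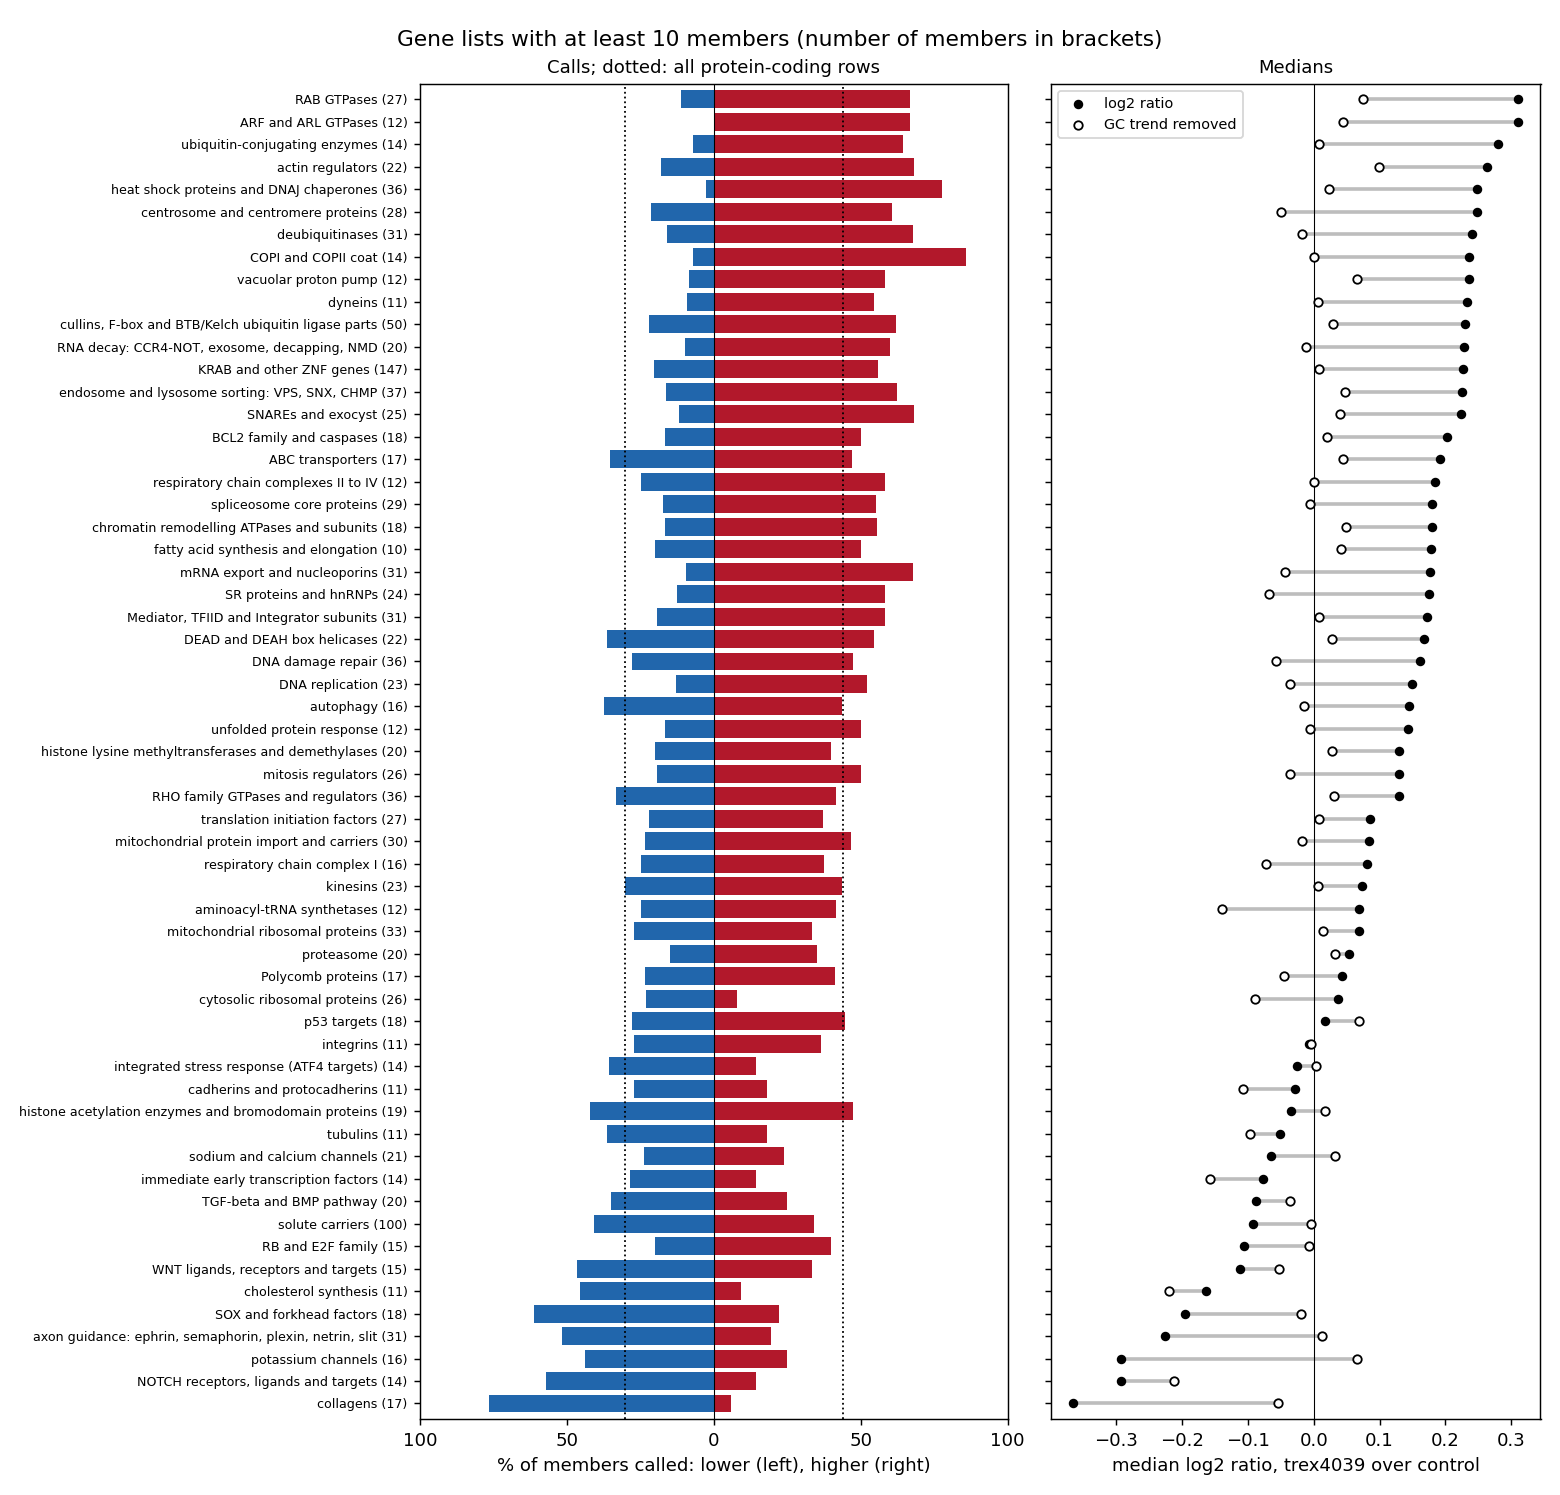
Gene lists with at least 10 members, ordered by median log2 ratio. Left, the percentage of members that fell (blue) or rose (red), with dotted lines at 30.2% and 44% for protein-coding rows; right, the median log2 ratio (filled) and the median with the GC trend removed (open), which lies near 0 for most lists.

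A few genes moved against their base composition. Of 1169 gene-length rows with over 58% GC, 16 rose, among them TGFA, DLL4, MAFF, SEMA5B, LTBR, the lymphotoxin receptor (106 to 143), and SEZ6L, a neuronal membrane protein (59.6 to 87.2). Of 1377 rows with at most 42% GC, 7 fell. HAS2, which makes hyaluronan, fell from 219 to 147 (-0.58), ANKRD18A from 1890.3 to 1265, and PCDH10, a neuronal protocadherin, from 682 to 554. CENPF, a kinetochore protein, and ADAT2, a tRNA deaminase, fell by 0.20 and 0.32 on the log2 scale.

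The gene-length row farthest below the GC trend was that of CXCR4, the receptor of the chemokine CXCL12 (chromosome 2, 136870792 to 136875719, hg19). Its mean was 1536 in the control and 813 with trex4039, a log2 ratio of -0.92 at a GC content of 43.9% (adjusted p 3.81e-06 per the authors' deposited table). The other groups had means of 1418 (titled trex5008), 1610.1 (trex8168) and 1423 (trex0108). HAS2 was likewise 221, 253 and 241 in those groups, near its control level. ALOXE3 stands on the opposite side, with means of 75.5, 92.1 and 83.9 there against 158 with trex4039. CXCR4, HAS2 and ALOXE3 had an adjusted p below 0.1 with trex4039 only, so they are listed through that comparison alone. Their levels near control in the other groups follow in part from that rule. Differences between target groups were not tested here.

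Rows outside protein-coding genes are set beside all 9795 rows, of which 41.1% rose and 32.1% fell. Of 1903 assembled XLOC rows without a type 755 rose (39.7%) and 650 fell (34.2%), near those shares, at a median of 0.06. Of 222 pseudogene rows 80 rose (36.0%) and 58 fell (26.1%), both below those shares, at a median of 0.25. Falls outnumbered rises in the other classes, where 46.2% to 54.1% of rows fell and 13.3% to 29.7% rose. Of 257 antisense rows 120 fell and 42 rose, at a median of -0.30. Of 145 lincRNA rows 67 fell and 30 rose, at -0.28, of 37 processed transcripts 20 fell and 11 rose, at -0.38, and of 233 unannotated CATG loci 116 fell and 31 rose, at -0.40. The largest falls were CATG00000064553.1 (89.6 to 24.6) and ASMTL-AS1 (153 to 42.8). After XLOC_035785, the largest rises were CATG00000034574.1 (118 to 347), XLOC_040853 (93.2 to 263), the ribosomal pseudogene RPS3AP47 (366 to 939) and the row named MIR4426 (125 to 288), which is far longer than a miRNA hairpin. In the group titled trex5008, CATG00000034574.1 stood at 369 and XLOC_040853 at 275. Strand use in counting is not given, so antisense rows and the genes they overlap are uncertain.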

How the data were processed

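PolyA RNA of 6 HEK293FT libraries, 3 with TrEx4039 guides and 3 with non-targeting guides, was compared through a table of 15 libraries. The tools named per the submitters' processing notes are DESeq2 1.14.1, DESeq, Cufflinks, bedtools, STAR 2.5.1b and Bowtie2 2.2.1; the builds are GRCh37 and hg19, and their roles are not stated. Each deposited signal value, a base mean per the file headers, is a group's mean normalised count. The deposited log2 fold changes are smaller in size than the log2 ratios of the means in 7170 of 7170 called rows. The deposited p-value columns are adjusted p. Per-library values were not used, so no model was fitted and no SD, depth or interval is given.

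Log2 ratios used a pseudocount of 1. Calls needed a 15-library mean of 50 and the authors' adjusted p below 0.05. GENCODE 29 features were matched by symbol; 81.6% of protein-coding rows had a GC content. A lowess curve (share 0.3, statsmodels 0.14.6, Python 3.11.15) gave the GC trend and was tested on simulated data. The members and the 81 gene lists were chosen with earlier results of these data known. Named genes are the 15 largest coding and 5 largest other changes each way, the largest called members of lists and defining members, the 10 highest means each way and rows within 500 kb of the largest rise. The restriction to gene-length rows, the sets off the GC trend and genes outside this rule were chosen after values were seen. Of the 10 falls with the highest means, 9 are loci without a gene name. Alternatives covered thresholds, pseudocount, the authors' fold change, centring and GC. A few genes and 1 sequence are not reported here.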

Additional observations from a re-analysis of the deposited data

How the results depend on the processing

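Counts of all rises and falls stayed within 1.5 times their values of 4022 and 3148 with adjusted p under 0.1 or 0.01, a mean of at least 100 or none, protein-coding rows only, or the median set to 0. Counts of changes of at least 1 on the log2 scale, 11 rises and 86 falls, moved more. The falls came to 43 with a mean of at least 100 and to 57 with a pseudocount of 10. With no minimum on the mean there were 68 rises and 553 falls, and the median log2 ratio of all rows was 0.038 instead of 0.09. Among protein-coding rows there were 1 and 31, and by the authors' deposited log2 fold change 1 and 14. In gene-length rows alone, an alternative chosen after seeing the data, 2253 rose and 1314 fell, with 0 rises and 12 falls of at least 1; fewer rows enter there. At least 0.5 of the change remained after the GC trend was removed in 230 rises and 343 falls, and the sign changed in 820 of 2253 rises (36.4%) and 362 of 1314 falls (27.5%). The number of lists with a median above 0 went from 50 to 40 with the GC trend removed. Named genes that changed sign with the GC trend removed were CKB (0.033), DNAJB2 (0.084), HSF1 (0.032), KPNB1 (-0.022), the main row of MPG (0.085), NRARP (0.11), PAX2 (0.048), PFN1 (0.052), PNPT1 (-0.023), RELA (0.057) and SC5D (-0.12). For these results the cause was not tested. By the authors' deposited fold change 0 of 134 named genes changed sign, but some leading changes were much smaller. PKLR was 0.89 instead of 1.71, DDIT4 -0.94 instead of -1.65 and RPS3AP47 0.34 instead of 1.36. LENG8 moved little, from -1.27 to -1.19. No paired analysis was possible because the table holds group means only, and leaving out single libraries was not run for the same reason. Depth is unknown, so a row that was not called cannot be said to be unchanged.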

Other observations

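Chromosomes with GC-rich genes had lower medians than those with GC-poor genes, though not in strict order. Over gene-length rows the median log2 ratio was -0.28 on chromosome 19 (314 rows, median GC content 61.1%), -0.21 on chromosome 22 and -0.18 on chromosome 16, and 0.28 on chromosome 4 (203 rows, 41.5%). Chromosome 18 had 0.29 at 43.7%, above chromosome 13 with 0.22 at 41.8%. With the GC trend removed the chromosome medians ran from -0.06 on chromosome 13 to 0.07 on chromosome 18.

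The fall with the highest mean was that of XLOC_054077, a locus on chromosome 6 (31782930 to 31815804, hg19) without a gene name. It went from 157674 to 131369 (-0.26). The gene-length rows with the highest means had small changes. PLS3, an actin bundler, rose from 36907 to 49194, the importin KPNB1 from 34963 to 40513, the helicase DHX9 from 19017 to 23536 and the splicing factor SF3B1 from 17697 to 22091. POLR2A, the largest subunit of RNA polymerase II, fell from 27121 to 20347 (-0.41, GC-removed -0.25), and DYNC1H1, the dynein heavy chain, from 25824 to 21338 (-0.28, GC-removed -0.26). CKB, the brain creatine kinase, fell from 26286 to 20757 and ACLY, which makes acetyl-CoA for lipid synthesis, from 25955 to 23649.

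Second rows recur in other named genes. POM121, a nucleoporin, had a main row at 9946 and 7718 and a second row at 1308 and 796 in control and trex4039. MEX3D, an RNA-binding protein, had a main row at 483 and 468 that was not called and a second row that fell from 94.2 to 43.9.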
